A study of Oryctolagus cuniculus with 10 samples.

Results

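Lungs of rabbit fetuses that had both a surgical diaphragmatic hernia and a later tracheal occlusion were compared with lungs of control fetuses. The 6 libraries, 3 per group, were chosen by their source labels from the 10 libraries of the study. All came from New Zealand rabbits, from tissue at the lateral side of the upper lobe of the left lung. The hernia was created on the left side at embryonic day 25 (E25), the trachea was occluded at E27 and lungs were collected at E30.5. Control is the only label of the control group, so whether these fetuses had a sham operation is not stated. The hernia is made by surgery and is not inherited. The 2 libraries with a hernia alone and the 2 with occlusion alone serve here for reference.

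A diaphragmatic hernia lets abdominal organs into the chest, where they take up the space in which the fetal lung would grow, and the lung stays small with fewer airway and vessel branches. The fetal lung secretes fluid that normally leaves through the trachea. When the trachea is closed, the fluid is held back, pressure in the airspaces rises and the stretch stimulates growth, which is the basis of fetal tracheal occlusion as a treatment. Prolonged occlusion is also known to lower the number of surfactant-producing alveolar type 2 cells. The comparison with control lungs addresses how far the treated lung still differs from a lung that was never compressed.

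Genes are given by their Ensembl rabbit identifiers. The table does not pair these identifiers with symbols, and 0 of the 13429 identifiers matched the reference table used here, so no gene can be assigned a function, a genome position or a cell type. For the same reason the lung label could not be checked against marker genes. Because whole tissue was sequenced, fewer cells of a type and less RNA per cell cannot be told apart in any of the values below.

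Estimated counts totalled between 17545134 and 19933486 per library over the 6 libraries, and 19 to 35 genes per library had no count. Levels are given as CPM, the counts of a gene per 1000000 counts of its library, with library sizes scaled by the TMM method of edgeR. Of the 13429 genes, 13379 reached 1 CPM in at least 2 of the 10 libraries and were tested.

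In the main analysis 3 genes passed the test between treated and control lungs. ENSOCUG00000001536 rose 4.32-fold, ENSOCUG00000027099 fell 39.6-fold and ENSOCUG00000009707 fell 2.8-fold. These 3 (0.0224% of genes tested) were all that had an adjusted p under 0.05 in edgeR's quasi-likelihood test, 1 higher (0.00747%) and 2 lower (0.0149%). The next gene in order of p had an adjusted p of 0.0918, 5 genes lay under 0.1 and 337 under 0.2. The number of calls depended on the tool and the libraries. DESeq2 called 466 genes, 217 higher and 249 lower, limma voom with library weights called 1017, and edgeR called 1 to 13 with a single library left out.

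ENSOCUG00000001536 was low in every control, at 8.43, 10.5 and 6.99 CPM, from 149, 211 and 121 counts. With hernia and occlusion it stood at 37.1, 37.8 and 37 CPM, from 727, 736 and 699 counts. The treated libraries were all above the controls, which the rule for naming a gene required, and were almost identical with each other. The lowest treated library was 3.53 times the highest control, the largest such gap upward among genes of at least 5 CPM. The means were 8.63 ± 1.7 CPM in controls and 37.3 ± 0.45 CPM in treated lungs (SD, n = 3 each). The log2 change was 2.11 ± 0.18 (SE, edgeR adjusted p = 0.00435). The call was lost without control 1 (edgeR adjusted p = 0.0728), with a log2 change of 2.09. The spread of the treated libraries was 1.22% of their mean, smaller than the 3.73% that counting error alone gives at this depth.

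The same gene was also high after each single operation. It stood at 29.8 and 41.6 CPM with a hernia alone and at 38.7 and 44.3 CPM with occlusion alone. The range of the doubly operated lungs lay within that of the hernia libraries and just below the occlusion libraries. Against the hernia alone, hernia with occlusion differed by a log2 change of 0.06 ± 0.18 (SE, edgeR adjusted p = 0.87). Against occlusion alone the log2 change was -0.15 ± 0.18 (SE, edgeR adjusted p = 0.98). Neither difference exceeded its standard error. The 7 operated libraries thus all lay between 29.8 and 44.3 CPM, above the highest control at 10.5 CPM.

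ENSOCUG00000027099 stood at 83.2, 147 and 93.7 CPM in the controls, from 1470, 2970 and 1622 counts. With hernia and occlusion it stood at 0.969, 2.98 and 4.23 CPM, from only 19, 58 and 80 counts. The groups were far apart, with the lowest control 19.6 times the highest treated library, the largest gap downward among genes of at least 5 CPM. The next largest gap downward was 7.48. The means were 108 ± 34 CPM and 2.73 ± 1.6 CPM (SD, n = 3 each). The log2 change was -5.31 ± 0.41 (SE, edgeR adjusted p = 0.00384). Transcripts of this gene were still counted in every treated library, and the 3 treated libraries differed among themselves by a spread of 60.4% of their mean, against 13.8% from counting error.

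This gene separated the libraries by occlusion and not by hernia. With a hernia alone it stood at 100 and 92.2 CPM, inside the range of the controls. With occlusion alone it stood at 2.28 and 2.89 CPM, inside the range of the doubly operated lungs. Hernia with occlusion against the hernia alone gave a log2 change of -5.14 ± 0.42 (SE, edgeR adjusted p = 0.0066), and it was the one gene called in that comparison (0.00747% of genes tested). Against occlusion alone the log2 change was 0.08 ± 0.52 (SE, edgeR adjusted p = 0.995). The sign of this small difference turned in 7 of 24 alternative analyses.

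ENSOCUG00000009707 stood at 160, 144 and 141 CPM in the controls and at 49.1, 54.7 and 55.1 CPM with hernia and occlusion. The groups did not overlap, which the rule for naming a gene required, and the lowest control was 2.56 times the highest treated library. The means were 149 ± 10 CPM and 53 ± 3.4 CPM (SD, n = 3 each). The log2 change was -1.49 ± 0.15 (SE, edgeR adjusted p = 0.0122). Between 962 and 2906 counts stood behind each of these libraries. Of the 3 calls this one depended most on single libraries. It was lost without control 1 (edgeR adjusted p = 0.109), control 3 (0.0718), hernia with occlusion replicate 1 (0.0677) or replicate 3 (0.0929), while the log2 change stayed between -1.53 and -1.43 over all single libraries left out.

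After single operations ENSOCUG00000009707 lay between the controls and the doubly operated lungs. It stood at 89.6 and 89.2 CPM with a hernia alone and at 77.6 and 119 CPM with occlusion alone, and no library of either group reached the range of the controls or that of the doubly operated lungs. Hernia with occlusion lay lower than the hernia alone by a log2 change of -0.76 ± 0.16 (SE), which did not pass (edgeR adjusted p = 0.089). It lay lower than occlusion alone by a log2 change of -0.89 ± 0.16 (SE), which did not pass either (edgeR adjusted p = 0.771). In DESeq2 both differences passed (adjusted p = 0.00265 and 0.00324), and in limma voom with library weights the difference from the hernia passed (adjusted p = 0.0307). The difference from occlusion alone depended on which occlusion library was kept. Leaving out occlusion replicate 1 gave a log2 change from occlusion alone of -1.17. Over all single libraries left out that change ran from -1.17 to -0.55. Against the hernia alone the adjusted p of edgeR fell to 0.0264 and 0.0259 when either occlusion library was left out, and the gene then passed.

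ENSOCUG00000004580 had the second lowest p among higher genes and did not pass the threshold. It stood at 21.5, 26.3 and 23.5 CPM in the controls and at 51, 40.7 and 43.9 CPM with hernia and occlusion. The groups did not overlap, which the rule for naming a gene required, and the lowest treated library was 1.55 times the highest control. The log2 change was 0.93 ± 0.12 (SE, edgeR adjusted p = 0.0918). It stood at 36.8 and 33.9 CPM with a hernia alone and at 39.1 and 37.4 CPM with occlusion alone, above all controls and below all doubly operated lungs. The differences of hernia with occlusion from the hernia alone (log2 change 0.35 ± 0.13, SE, edgeR adjusted p = 0.2) and from occlusion alone (0.24 ± 0.13, adjusted p = 0.965) did not pass.

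**Figure D1:**
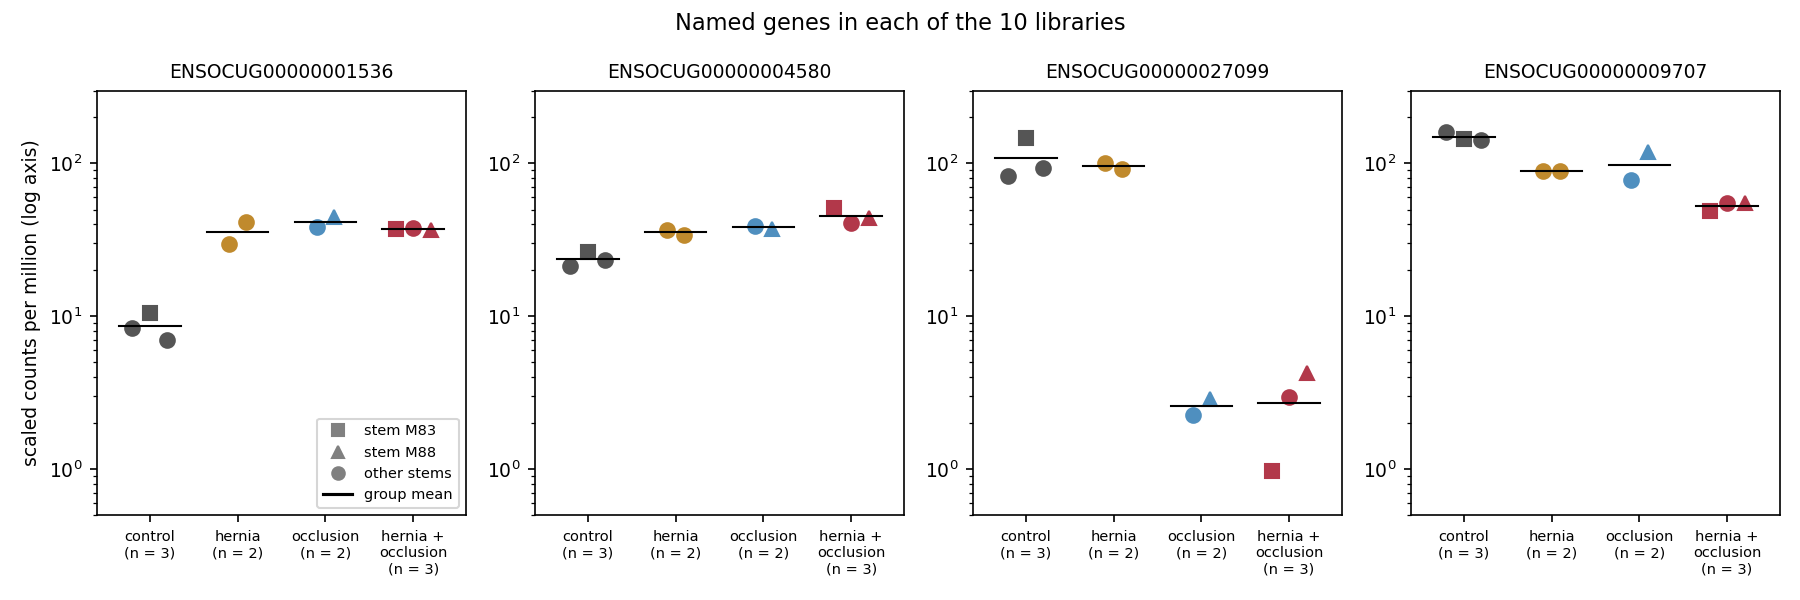
Scaled CPM (log axis) of the 4 named genes in each of the 10 libraries, by group; each point is a library, the line is the group mean, and squares and triangles mark libraries that share a title stem. ENSOCUG00000027099 is low in all 5 occluded libraries (0.969 to 4.23 CPM), and ENSOCUG00000001536 is high in all 7 operated libraries (29.8 to 44.3 CPM).

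Changes from control in the single operations use the same 3 controls and are given beside each other only as values. For ENSOCUG00000001536 the log2 changes from control were 2.05 ± 0.19 with a hernia, 2.26 ± 0.19 with occlusion and 2.11 ± 0.18 with both (SE). For ENSOCUG00000027099 they were -0.17 ± 0.40, -5.39 ± 0.54 and -5.31 ± 0.41. For ENSOCUG00000009707 they were -0.73 ± 0.17, -0.60 ± 0.16 and -1.49 ± 0.15. For ENSOCUG00000004580 they were 0.57 ± 0.13, 0.69 ± 0.13 and 0.93 ± 0.12. The first 2 genes therefore had about the same level after both operations as after one of them, and the other 2 had the value farthest from control after both. All of these genes were named for a low p in the comparison of both operations with control. That choice favours values far from control in the doubly operated lungs, so this order carries no test.

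Titles of a control (replicate 2) and of a doubly operated library (replicate 1) begin with the same stem, M83, whose meaning is not given. Within this pair the 4 genes kept their directions, which the rule for naming a gene fixed in advance. Only the sizes of the differences are therefore informative here. The treated library was 3.54 times the control for ENSOCUG00000001536 and 1.94 times for ENSOCUG00000004580. The control was 152 times the treated library for ENSOCUG00000027099, which joins the highest control value with the lowest treated value, and 2.94 times for ENSOCUG00000009707. Without both libraries of this stem the log2 change of ENSOCUG00000009707 was -1.46 and its call was lost (edgeR adjusted p = 0.144).

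Beyond these genes, most differences were small. Before adjustment, 2097 genes had an edgeR p under 0.05, of which 1125 were higher (8.41% of genes tested) and 972 lower (7.27%). All 3 treated libraries lay above all 3 controls in 1552 genes (11.6%) and below them in 1554 genes (11.6%). The gap between the groups was narrow in most of these. Among the 1295 higher genes of at least 5 CPM it had a median of 1.08, and it reached 2-fold in 8 genes and 3-fold in 2. Among the 1340 lower genes its median was also 1.08, and it reached 2-fold in 10 genes and 3-fold in 3. The median log2 change over all genes tested was 0.01, and 90% of genes lay between -0.75 and 0.72. The median standard error of 0.18 was close to the median size of the change, 0.19.

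No gene met the criteria used here for being switched on or off across all libraries of a group. There were 0 genes with a count of 0 in all treated libraries and at least 1 CPM in all controls, and 0 genes with the reverse. There were also 0 genes below 1 CPM in one whole group and at 5 CPM or more in the other.

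**Figure D2:**
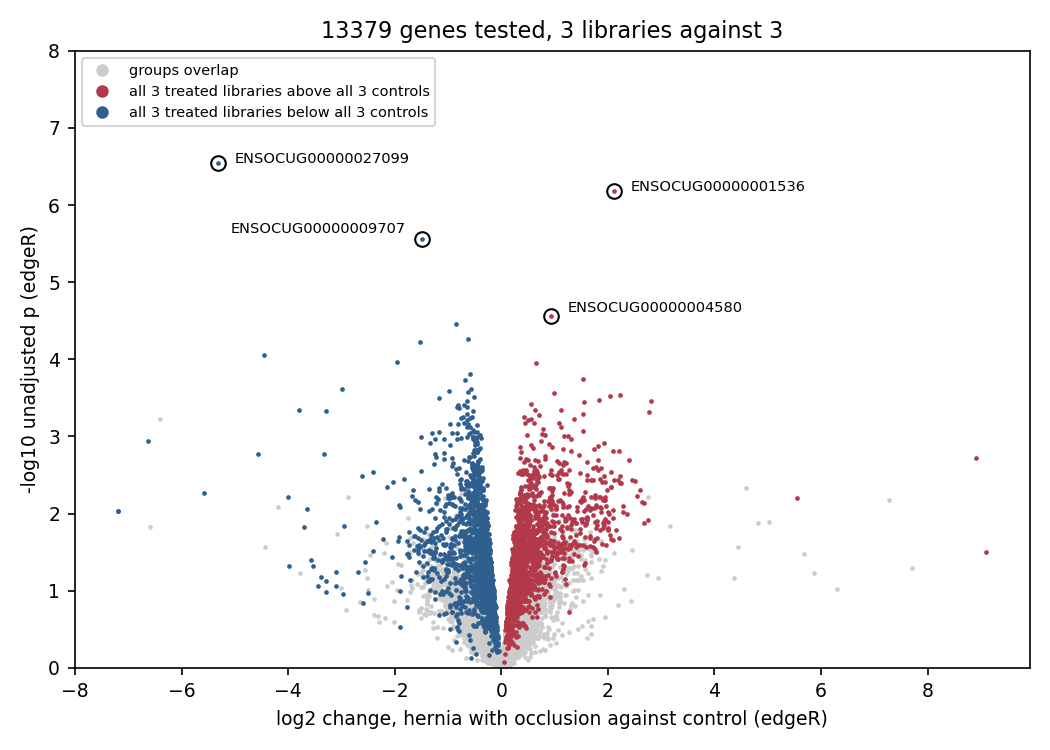
Log2 change of hernia with occlusion against control (x axis) and -log10 of the unadjusted edgeR p (y axis) for 13379 genes; colours mark genes whose 2 groups of 3 libraries do not overlap, and circles mark the 4 named genes. The 3 called genes lie above the rest, while most of the coloured genes lie close to a change of 0.

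Changes of at least 2-fold were fitted in 400 genes upward (2.99% of genes tested) and 389 downward (2.91%). Of these, 201 of the higher and 186 of the lower genes had a mean of at least 5 CPM over the 6 libraries. The treated libraries contributed unequally to these. Of the 201 higher genes, replicate 1 lay above all controls in 95.5%, replicate 3 in 96.5% and replicate 2 in 77.6%. Of the 186 lower genes, replicate 1 lay below all controls in 93.5%, replicate 3 in 95.2% and replicate 2 in 58.1%. The groups did not overlap in 146 of the higher and 102 of the lower genes. These genes were chosen by the change itself, so the shares describe which libraries made it and nothing more.

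Hernia with occlusion replicate 2 stood apart from the other 2 treated libraries over the whole table. The distance between 2 libraries was taken as the percent of scaled counts that would have to move to other genes to make them equal. Treated replicates 1 and 3 were 6.57% apart, within the 5.49% to 7.64% of the 3 pairs of controls. Replicate 2 was 9.66% from replicate 1 and 9.96% from replicate 3, but only 8.29% to 9.22% from the controls. Replicates 1 and 3 were between 10.8% and 12% from the controls. The pair of libraries with stem M83 was 10.8% apart, slightly closer than the other pairs of replicate 1 with a control, at 11.1% and 11.3%. Without replicate 2 edgeR called 7 genes against control, 2 higher and 5 lower, with the 3 genes above among them.

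The single operations also stood unevenly against these libraries. The 2 occlusion libraries were themselves 13.5% apart, and the 2 hernia libraries 7.02%. Among the libraries with a single operation, occlusion replicate 1 was the closest to treated replicates 1 and 3, at 6.59% and 5.82%. Occlusion replicate 2 was far from both, at 12.6% and 13.4%. Treated replicate 3 and occlusion replicate 2 share the stem M88. Treated replicate 2 was 10.7% and 9.84% from the occlusion libraries and 10.6% and 9.33% from the hernia libraries. The distances of replicates 1 and 3 to the hernia libraries, between 12.7% and 14.1%, were larger than their distances to the controls.

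**Figure D3:**
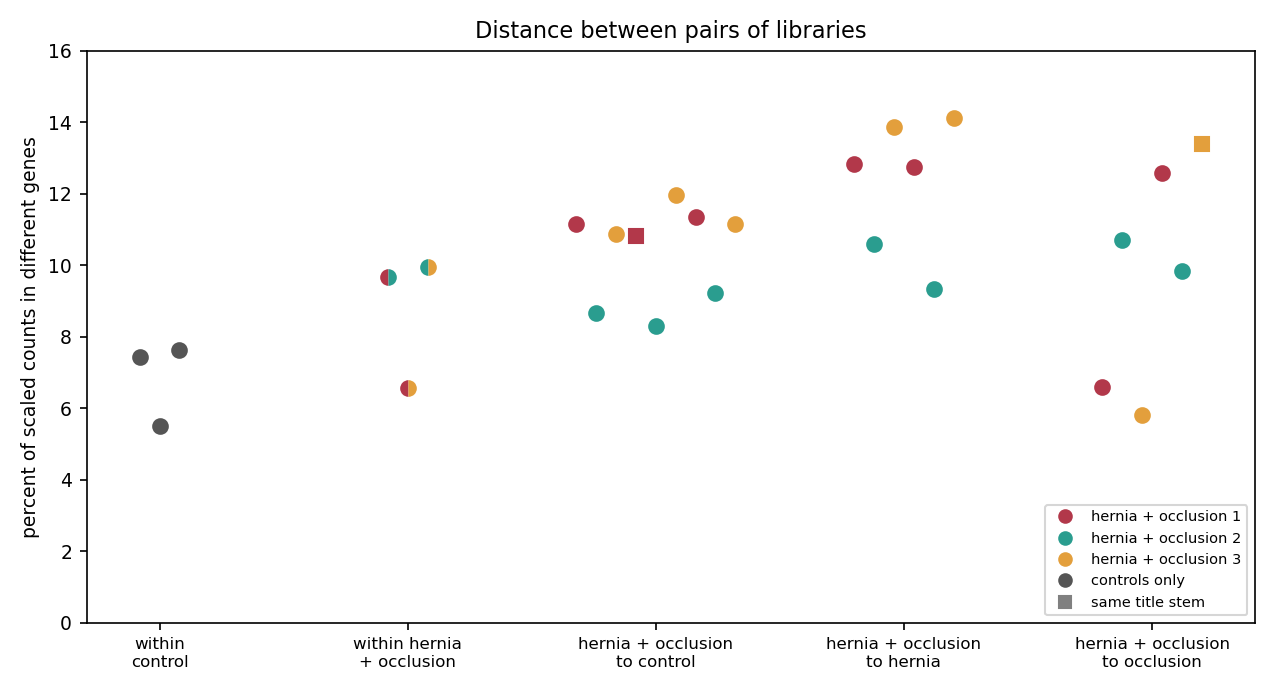
Percent of scaled counts in different genes (y axis) for pairs of libraries within a group or between groups (x axis); each point is a pair, coloured by the doubly operated library it holds (2 colours where it holds 2), and squares mark pairs with the same title stem. Doubly operated replicate 2 lies nearer to the controls (8.29% to 9.22%) than replicates 1 and 3 do (10.8% to 12%).

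Within-group spread was slightly larger after the operations. Over the 10952 genes of at least 5 CPM, the median SD of log2(CPM + 0.5) was 0.14 in controls and 0.16 in treated lungs, and the SD was larger in treated lungs in 57% of genes. At least 2-fold differences between 2 libraries were seen in 0.219% to 3.26% of these genes within controls and in 2.53% to 6.01% within treated lungs. Between a treated and a control library they were seen in 2.34% to 7.52% of genes, a range that overlaps both.

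The balance of higher and lower genes was not the same among genes of few and of many counts. Genes with a mean from 2 CPM up to 10 CPM were more often higher than lower at an unadjusted p under 0.05, 9.06% against 5.33% of 2871 genes. Genes from 50 up to 200 CPM were balanced, at 8.4% and 8.16% of 3442 genes. Among the 921 genes of at least 200 CPM, 15.5% were lower (143 genes) and 5.75% higher (53 genes). The 143 lower genes had a median log2 change of -0.44. None of the 921 genes passed the adjusted threshold, and the median log2 change over the 921 was -0.0048. CPM is not divided by transcript length, so these classes mix abundance and length. In all 24 alternative analyses more genes of this class were lower than higher. The counts ran from 107 to 225 lower genes and from 23 to 113 higher genes, and the closest were 148 lower and 91 higher, without treated replicate 2.

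Single libraries did not all share this pattern. Of the 921 genes, treated replicate 1 lay below all controls in 36.9% and above in 28%, and replicate 2 below in 35.7% and above in 27.5%. Replicate 3 lay below in 31.6% and above in 34.5%. Over all genes the shares in these libraries were 29.4% to 32.1% below and 29.2% to 33.6% above. In the hernia libraries, compared with the same controls, 35.7% and 44.8% of the 921 genes lay below all controls and 21.4% and 16% above. In the occlusion libraries the shares were 32.2% and 29.9% below and 34.7% and 23.1% above. The 921 genes held between 51.6% and 52.6% of all counts in the controls and between 50.8% and 51.7% in the treated lungs, ranges that overlap.

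**Figure D4:**
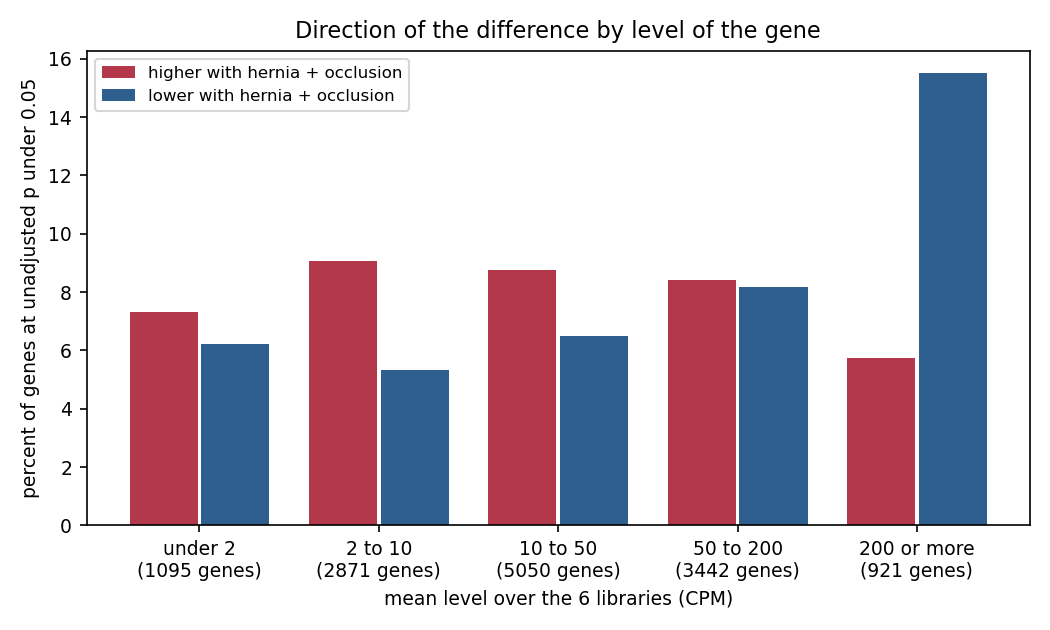
Percent of genes at an unadjusted edgeR p under 0.05 (y axis) that were higher (red) or lower (blue) with hernia and occlusion than in control, in 5 classes of mean CPM over the 6 libraries (x axis). Among the 921 genes of at least 200 CPM 15.5% were lower and 5.75% higher.

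The 100 genes of at least 5 CPM with the lowest p in each direction show the size of the change beside that in the other groups. They were chosen by this comparison, so their values carry no test. At least 2-fold changes made up 40 of the 100 higher genes and 18 of the 100 lower genes. The largest log2 change was 8.91 in size among the higher genes and 6.63 among the lower genes, beyond those of the called genes. Apart from ENSOCUG00000001536, the gap between the groups was at most 3.09 among higher genes of at least 5 CPM. Apart from ENSOCUG00000027099, it was at most 7.48 among the lower genes. The largest changes were therefore not shared evenly by the libraries. The 100 higher genes had a median log2 change from control of 0.79 with both operations, 0.40 with a hernia and 0.48 with occlusion. The 100 lower genes had a median of -0.60 with both operations, -0.11 with a hernia and -0.22 with occlusion. Over all genes tested each of the 3 medians was 0.01. By library, the higher genes lay a median of 0.82, 0.60 and 0.82 above the control mean in treated replicates 1, 2 and 3 on the log2(CPM + 0.5) scale. In the same libraries the lower genes lay at -0.63, -0.52 and -0.67. In the hernia libraries the values were 0.37 and 0.38 for the higher genes and -0.09 and -0.06 for the lower genes. The 2 occlusion libraries differed, with 0.60 and 0.26 for the higher genes and -0.29 and -0.14 for the lower genes.

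Against the single operations, edgeR called 1 gene and 0 genes. Hernia with occlusion against the hernia alone had 1418 genes higher (10.6%) and 1305 lower (9.75%) before adjustment (edgeR p under 0.05), with ENSOCUG00000027099 the only edgeR call. DESeq2 called 842 genes there, 471 higher and 371 lower, and limma voom with library weights called 592. Groups did not overlap in 2777 genes upward (20.8%) and 2692 downward (20.1%). Against occlusion alone edgeR called 0 genes (0%). Before adjustment 162 genes were higher (1.21%) and 474 lower (3.54%) at an edgeR p under 0.05. DESeq2 called 26 genes. Groups did not overlap there in 941 genes upward (7.03%) and 1130 downward (8.45%). With 3 libraries against 2, non-overlap is reached more easily than with 3 against 3, so these shares cannot be set against those for control. Both counts depended on the occlusion libraries. Without occlusion replicate 1 edgeR called 433 genes against the hernia, in which that library enters only the shared estimate of spread, and 85 against occlusion. Without occlusion replicate 2 it called 445 and 4.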

How the data were processed

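RNA was sequenced in 10 libraries. Per the submitters' processing notes, the tools were kallisto 0.42.2.1 and edgeR (no version) and the build was OryCun2.0, with no role or order. The authors deposited a table of whole numbers with different totals per library (16383835 to 22239034), treated here as estimated counts per gene. The steps from transcripts to genes, any rounding and any filter are not stated in those notes. Near-identical or overlapping genes may share reads, which makes their values uncertain.

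Groups came from the source labels, with replicates numbered in accession order. Separate litters are not stated, so p-values reflect only the spread among these libraries, which may be technical. A gene was kept if 2 or more libraries reached 1 CPM, which removed 50. An edgeR 4.0.16 quasi-likelihood fit (R 4.3.3; TMM scaling, estimateDisp) to all 10 libraries with 1 mean per group had 6 residual degrees of freedom. Benjamini-Hochberg adjusted p under 0.05 over all tested genes was called, in 3 comparisons. Each standard error was the absolute log2 change divided by the root of F. The fit was tested on simulated data. Alternatives used other filters, scalings, libraries, limma 3.58.1 and DESeq2 1.42.0. Without symbols, the rule for named genes took the 2 lowest p in each direction among genes of at least 5 CPM whose groups do not overlap, and 36 gene lists could not be applied. The comparison and rules were chosen with earlier results of these data known.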

Additional observations from a re-analysis of the deposited data

How the results depend on the processing

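The count of 3 genes against control, and the same 3 genes, were kept under no filter, a filter of 5 CPM in 3 libraries, both other scalings, limma voom, limma trend with either pseudocount, robust and older edgeR and the title stem as a random block. DESeq2 called 466 genes and limma voom with library weights 1017, and a fit of only these 2 groups called 6, each with the 3 genes among them. Leaving out single libraries gave 1 to 13 calls. The count was 1 when control 1 was left out, which also ended the call of ENSOCUG00000001536 (edgeR adjusted p = 0.0728). It was 10 for control 2, 13 for occlusion replicate 1, 12 for occlusion replicate 2 and 7 for the second doubly operated library. ENSOCUG00000027099 kept its call against control in all 24 alternatives (adjusted p up to 0.0224). ENSOCUG00000004580 passed in DESeq2 and in limma voom with library weights.

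Against the hernia, 1 call became 842 in DESeq2, 592 with library weights, 9 with only these groups, 2 in limma voom, 2 with the stem as a random block and 3 without both libraries of stem M83; single libraries left out gave 1 to 445. Against occlusion, 0 calls became 26 in DESeq2 and 1 without stem M83, and single libraries left out gave 0 to 85. Small differences that turned in sign were that of ENSOCUG00000027099 against occlusion (-0.15 in limma voom, -0.34 with library weights, -0.086 and -0.019 in limma trend, -0.10 with the stem block, and -0.39 to 0.48 with single libraries left out) and that of ENSOCUG00000001536 against the hernia (-0.15 to 0.32 with single libraries left out). The causes were not tested. The estimated correlation within stems was -0.37. It rests only on stems M83 and M88, the ones that hold more than 1 library, each across groups.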
